A study of Mus musculus with 20 samples.

Results

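Complement is a set of blood and tissue proteins that mark microbes and dying cells for uptake or attack, and 9 of its genes were followed here in the mouse trachea after chemical loss of the airway epithelium. They were C1qa, C1qb and C1qc, C2, C3, Cfb, Cfp, C3ar1 and C5ar1. Every probe carrying one of these names or an older one (C1qg for C1qc, H2-Bf for Cfb, C5r1 for C5ar1) was taken. This gave 12 of the 41174 probes on the array, or 9 of its 27670 distinct names. Those names include the array names of 8455 probes that matched no gene in the reference. C2, C3 and C3ar1 had 2 probes each, and the other genes had 1. For these genes the brighter probe is described first.

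RNA came from the whole trachea of C57/Bl6 mice aged 4 months, either wild-type (WT) or lacking Myd88, the adaptor of most Toll-like receptors and of the interleukin-1 receptor family (Myd88KO, or KO). Both genotypes were taken untreated (WT-control, KO-control) or 3 days after 2% polidocanol, a detergent that strips the surface epithelium, was placed in the airway (WT-injury, KO-injury). Each of the 4 groups held 5 tracheas, each on its own 1-colour array. The methods describe KO and WT mice as separate breeding colonies, so colony and genotype cannot be told apart.

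All values are log2 intensities minus the 75th percentile of their own array, so a difference of 1 is a doubling, and 0 is the brightness of that percentile. Probes entered the test if 10 or more of the 20 arrays showed them well above background, and 26063 probes did. A gene is said to have risen or fallen where limma gave a Benjamini-Hochberg adjusted p under 0.01 over all tested probes. Of the 9 genes 8 were tested, with 11 of their 12 probes, and C5ar1 was not. Each replicate number stood for 1 slide that carried 1 array of every group, so each difference is also given slide by slide. Slides 1 and 5 were scanned on one day, and slides 2, 3 and 4 on another.

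Between 56.8% and 67.2% of probes were well above background on each array, and the percentile used for scaling lay between 494.6 and 971.9 intensity units. Myd88 itself read 2.13, 1.95, 2.28, 1.94 and 2.08 in WT-control and 2.00, 1.82, 2.04, 1.86 and 1.60 in KO-control, so the uninjured groups overlapped. After injury it was 0.77 lower in KO than in WT (adjusted p = 0.00824, limma) with no overlap. Whether its probe lies in the deleted stretch is not given in the sources used here. As for the tissue label, the basal cell keratin Krt5 and the ciliated cell factor Foxj1 were well above background on every array. None of the 3 liver genes looked at (Alb, Apoa1 and Ttr) passed the filter. Group medians of the summed marker level ran from 7.30 (KO-injury) to 8.21 (KO-control) for thyroid. For skeletal muscle they ran from 9.095 (KO-injury) to 9.69 (KO-control), and for fat cells from 7.13 (KO-injury) to 8.10 (KO-control). For basal cells they ran from 7.55 (WT-control) to 8.56 (WT-injury). Thyroid, muscle and fat cell genes were thus also bright in these samples, and their part in the complement values was not tested.

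As background, complement starts by 3 routes, of which the lectin pathway begins with sugar-binding proteins. In the classical pathway C1q, built of the chains encoded by C1qa, C1qb and C1qc, binds antibody and cell debris and its proteases cut C4 and C2. In the alternative pathway C3b binds factor B (Cfb), and properdin (Cfp) holds the resulting enzyme together. All routes meet at C3, whose cleavage releases C3a and, further on, C5a, small peptides sensed by the receptors encoded by C3ar1 and C5ar1. The liver makes most circulating complement, whereas macrophages are a main source of C1q and neutrophils and monocytes of properdin.

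In wild-type tracheas injury raised 6 of the 8 tested genes. These were all 3 C1q chains, both alternative pathway genes and the C3a receptor, by 2.00- to 9.69-fold. Over all probes 5.26% were called in this comparison, and 3.24% were called higher. C2 and C3 were not called. For 7 of the 8 genes, all but C3, every WT-injury array read above every WT-control array, which held for 7.8% of all tested probes, and all 8 genes were higher on each of the 5 slides. The median difference of the 8 genes was 1.67 on the log2 scale, against 9.91e-05 over all tested probes.

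The C1q chains moved as a set. C1qa read 1.53, 1.13, 1.04, 1.31 and 1.49 in WT-control and 3.63, 3.12, 2.17, 3.11 and 3.37 in WT-injury, replicates 1 to 5 in order. The lowest injured trachea, replicate 3, still lay above the highest control. The difference was 1.78 ± 0.31 (SE; 3.44-fold; adjusted p = 0.00146), and on single slides it ran from 1.13 to 2.10. C1qb lay between 0.45 and 0.98 in WT-control and between 1.51 and 3.04 in WT-injury, a difference of 1.77 ± 0.33 (adjusted p = 0.00198). C1qc lay between 2.29 and 3.21 in WT-control and between 3.55 and 4.80 in WT-injury, a difference of 1.58 ± 0.31 (adjusted p = 0.0026). For all 3 chains replicate 3 was the lowest of the injured wild-type tracheas and replicate 1 the highest.

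The 3 C1q probes lie on one strand of mouse chromosome 4 in the files. The 250 bases before the RefSeq start of C1qb and C1qc (build GRCm38.p6, read in the direction of the gene) are shown because these neighbours rose together. The table of promoter sequences matched 6 of the 9 genes: C1qb, C1qc, C3, Cfp, C3ar1 and C5ar1. C1qa, C2 and Cfb are named without a sequence. Capitals mark matches, on either strand, to 5 motifs: PU.1 (AGGAAG), AP-1 (TGANTCA), C/EBP (TTGCNNAA), and the interferon response and NF-kB motifs.
C1qb, chr4:136886201-136886450, minus strand: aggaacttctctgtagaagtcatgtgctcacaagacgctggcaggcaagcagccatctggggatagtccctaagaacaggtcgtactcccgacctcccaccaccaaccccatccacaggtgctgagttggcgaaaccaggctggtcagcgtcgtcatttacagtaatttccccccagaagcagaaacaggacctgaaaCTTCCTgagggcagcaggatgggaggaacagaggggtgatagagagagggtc
C1qc, chr4:136892915-136893164, minus strand: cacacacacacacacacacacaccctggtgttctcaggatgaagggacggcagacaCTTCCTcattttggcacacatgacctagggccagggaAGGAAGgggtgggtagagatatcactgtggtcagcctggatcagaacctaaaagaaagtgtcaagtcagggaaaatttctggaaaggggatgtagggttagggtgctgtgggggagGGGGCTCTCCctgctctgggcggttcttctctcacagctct
C1qb held 1 PU.1 match, 52 to 47 bases before its start. C1qc held 2 PU.1 matches and 1 NF-kB match, the latter 41 to 32 bases before its start. Of 32851 promoters of the same length 29.5% held the PU.1 letters and 7.25% the NF-kB motif, so the PU.1 letters are common. A match is a description of the sequence, not a binding site.

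Of the alternative pathway genes, properdin showed the larger difference. Cfp read 2.23, 1.73, 1.26, 1.74 and 1.89 in WT-control and 4.75, 3.87, 3.15, 3.98 and 4.49 in WT-injury, again lowest in replicate 3. It rose by 2.28 ± 0.39 (4.85-fold, adjusted p = 0.0012). Its 250 bases held no match to any of the 5 motifs. Cfb, the serine protease zymogen of the C3 convertase, read 3.85, 3.57, 2.88, 3.30 and 3.54 in WT-control and 4.49, 4.11, 4.26, 4.47 and 4.82 in WT-injury. It rose by 1.00 ± 0.23 (2.00-fold, adjusted p = 0.00704). Here replicate 3 was not the lowest injured trachea, and its own slide gave the largest of the slide differences, 1.38. The call for Cfb stood close to the threshold, and it held in 12 of the 20 fits that left out 1 array. It was lost with a one-way parametric test of the compared groups alone (adjusted p = 0.0179). The methods describe a one-way test across all wild-type and KO samples, so this need not be the authors' test.

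C3, at which the routes meet, and C2, of the classical and lectin routes, were higher in the injured wild-type tracheas without passing the test. C3 read 6.95, 6.18, 6.37, 6.79 and 7.16 in WT-control and 7.58, 6.58, 6.92, 7.36 and 7.52 in WT-injury, so the groups overlapped. The difference was 0.50 (95% interval 0.06 to 0.95; adjusted p = 0.132). It was positive on every slide, between 0.36 and 0.63. The dimmer C3 probe gave 0.79 (adjusted p = 0.189). C2, the protease cut by C1s, read 1.31, 1.32, 1.11, 1.27 and 1.28 in WT-control and 1.61, 1.70, 1.74, 2.03 and 2.23 in WT-injury. The groups did not overlap, and the difference of 0.60 (95% interval 0.10 to 1.11) had an adjusted p of 0.112. Its second probe gave 0.51 (adjusted p = 0.177) with overlapping groups. The 250 bases before C3 are printed for comparison with the C1q pair.
C3, chr17:57228137-57228386, minus strand: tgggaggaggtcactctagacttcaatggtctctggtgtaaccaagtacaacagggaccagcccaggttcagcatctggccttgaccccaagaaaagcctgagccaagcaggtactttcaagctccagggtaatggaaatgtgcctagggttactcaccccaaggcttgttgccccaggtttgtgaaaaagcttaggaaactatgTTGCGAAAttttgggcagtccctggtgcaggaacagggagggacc
They held 1 match, to C/EBP, 45 to 38 bases before the start. This motif was found in 9.56% of all promoters.

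Among the receptors C3ar1 had the largest difference of the 8 tested genes. It read -2.72, -3.64, -3.13, -3.11 and -2.81 in WT-control and 1.26, 0.06, -1.11, -0.41 and 1.15 in WT-injury. The rise was 3.28 ± 0.55 (9.69-fold, 95% interval 2.13 to 4.42 on the log2 scale, adjusted p = 0.00103). Replicates 1 and 5 were highest and replicate 3 lowest, as for the C1q chains and Cfp. The second C3ar1 probe was well above background on no WT-control array, so only an approximate bound is given. By it WT-injury was 9.41-fold or more higher (adjusted p = 0.00111, limma on the measured values). Such a bound sets the bright group against the lowest signal that counted as well above background on each array of the dim group. Where the probe's own reading was higher, that reading was used. The lowest signal was taken over all probes, so it is not the detection limit of this probe.
C3ar1, chr6:122856158-122856407, minus strand: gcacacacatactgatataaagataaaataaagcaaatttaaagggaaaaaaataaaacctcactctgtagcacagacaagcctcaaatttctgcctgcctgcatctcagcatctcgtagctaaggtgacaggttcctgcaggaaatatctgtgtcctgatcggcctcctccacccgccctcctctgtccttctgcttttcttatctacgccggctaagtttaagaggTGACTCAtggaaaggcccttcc
These bases, shown for the gene with the largest difference, held 1 AP-1 match, 22 to 16 bases before the start. AP-1 letters were present in 6.75% of promoters. None of the 6 matched genes held the interferon response motif, found in 2.98% of promoters.

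C5ar1 was well above background on 6 of 20 arrays, 3 of them WT-injury, 2 KO-injury and 1 KO-control, so it was not tested. It read -5.38, -6.94, -6.80, -7.14 and -6.55 in WT-control and -2.88, -4.19, -6.49, -4.82 and -2.80 in WT-injury. The approximate bound described for C3ar1 put the mean of WT-injury 1.5-fold or more above WT-control. That mean includes WT-injury arrays on which the probe was not well above background. Replicate 3 of WT-injury, at -6.49, lay within the WT-control range. With the filter on dim probes removed the difference was 2.33 with an adjusted p of 0.0502 (limma over 41174 probes). In KO-control it read -7.23, -7.21, -6.59, -7.54 and -4.22, and in KO-injury -5.96, -3.87, -6.12, -4.58 and -6.33.

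**Figure D1:**
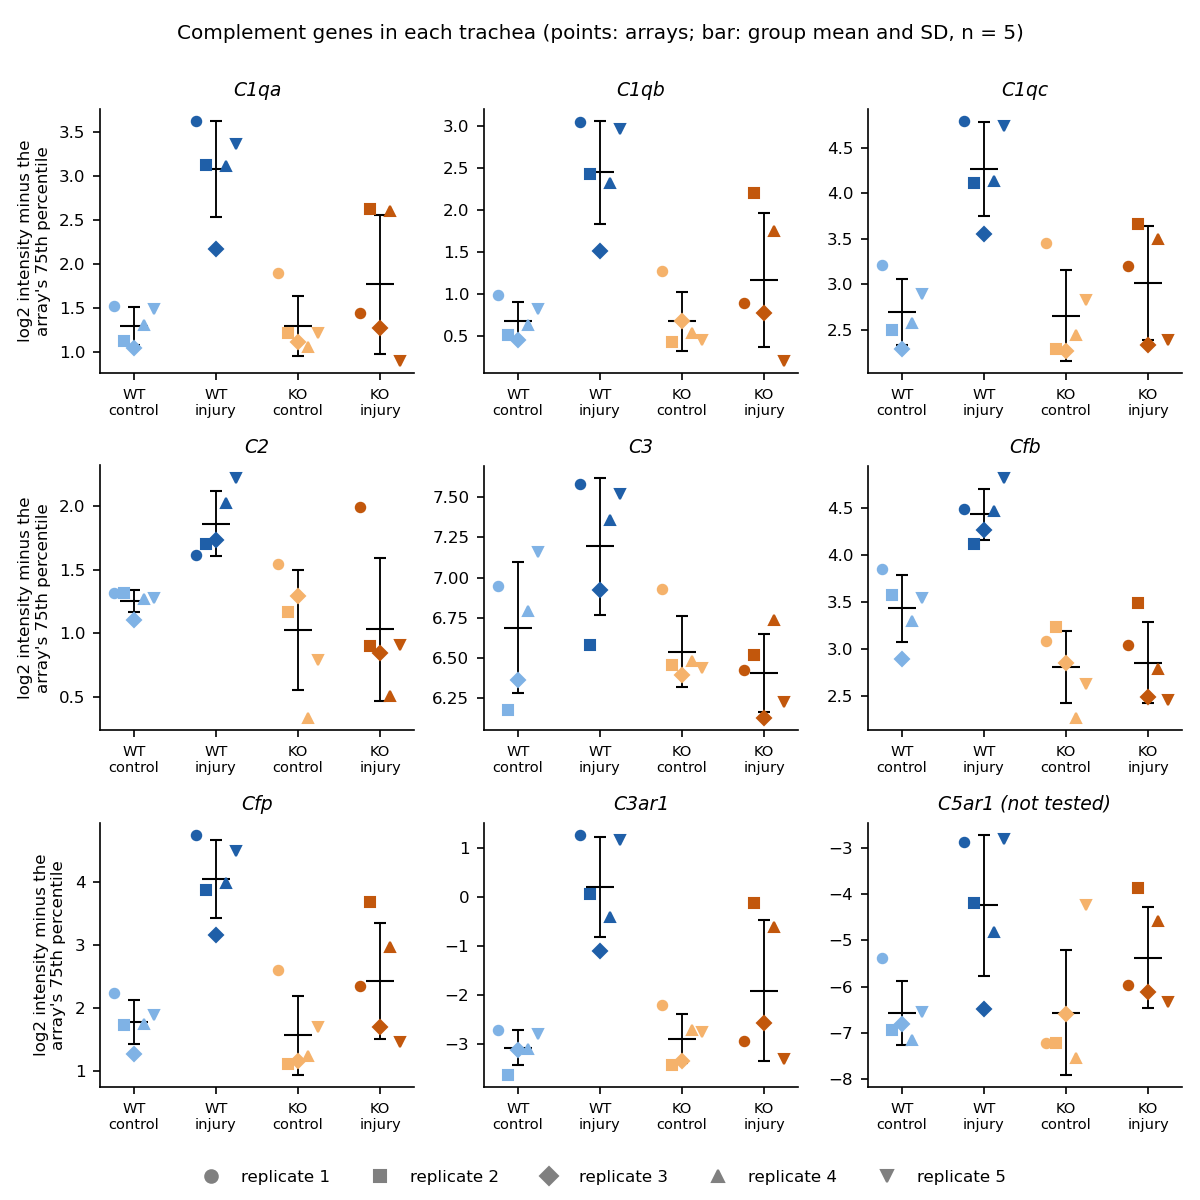
Level of each complement gene (log2 intensity minus the array's 75th percentile, vertical axis, scaled separately for each gene) in the 4 groups; each point is 1 trachea, with a marker for its replicate number, and the bars give the group mean and SD (n = 5). C1qa in WT-injury sits between 2.17 and 3.63, above all WT-control points, while in KO-injury replicates 2 and 4 lie at 2.63 and 2.60 and the other 3 between 0.90 and 1.45.

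The rise in wild-type tracheas came with higher macrophage genes. Of 9 macrophage and monocyte genes 5 rose: Cd68 by 3.27, Fcgr1 by 3.60, Adgre1 (F4/80) by 2.03, Mpeg1 by 2.22 and Csf1r by 1.55. Cd14, Mrc1, Cd163 and Lyz2 were not called. Over all probes 3.24% were called higher in this comparison. The summed level of all 9 lay between 8.31 and 9.13 in WT-control and between 8.46 and 9.14 in WT-injury, a sum to which Lyz2, differing by -0.06, added most. Of 6 tested neutrophil genes Csf3r and Mmp9 rose, and of 3 general leukocyte genes Laptm5 and Cd53 did. The secretory cell gene Scgb1a1 fell by 7.91. In whole trachea more or fewer cells of a type and more or less RNA per cell cannot be told apart. The part of these cell types in the complement values was not tested.

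Without Myd88, none of the 8 genes was called after injury, where 0.376% of all probes were. The smallest adjusted p was 0.229 (Cfp), 1 gene had an unadjusted p under 0.05 (19.5% of all probes did), and the median difference of the 8 was 0.41. The one-way test of the compared groups also called 0 of the 8, but it called 0 of all 26063 probes. So did the fit of the 2 groups alone, so neither could call one of these genes. The other alternatives tried also called 0 of the 8, among them array weights, which called 1901 of the 26063 probes. No gene had every KO-injury array above every KO-control array, which held for 1.15% of probes. The 5 injured KO tracheas were far from alike. C1qa read 1.90, 1.22, 1.11, 1.06 and 1.22 in KO-control and 1.45, 2.63, 1.27, 2.60 and 0.90 in KO-injury. Replicates 2 and 4 stood above every control, and replicates 1, 3 and 5 did not. The array of KO-injury replicate 5 had the lowest share of probes well above background, 56.8%, and the most outlier spots, 192. Without it 1075 of the 26063 tested probes were called in this comparison, against 98 with it. Still 0 of the 8 genes were called.

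The same replicates were high for properdin and the C3a receptor. Cfp read 2.61, 1.11, 1.17, 1.23 and 1.70 in KO-control and 2.34, 3.68, 1.70, 2.97 and 1.45 in KO-injury, a difference of 0.87 (95% interval 0.05 to 1.68, adjusted p = 0.229). C3ar1 read -2.22, -3.44, -3.36, -2.72 and -2.77 in KO-control and -2.95, -0.12, -2.59, -0.62 and -3.31 in KO-injury, a difference of 0.98 (95% interval -0.16 to 2.13, adjusted p = 0.335). On slides 2 and 4 the KO difference of C3ar1 was 3.32 and 2.10, within the range of the wild-type slides (2.03 to 3.98), whereas on slides 1 and 5 it was -0.73 and -0.54.

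For C3 and Cfb the slide differences had the same split in a smaller size, and C2 departed from it. The brighter C3 probe and Cfb were positive on slides 2 and 4 alone. C3 read 6.93, 6.46, 6.39, 6.48 and 6.44 in KO-control and 6.43, 6.52, 6.13, 6.74 and 6.23 in KO-injury, a difference of -0.13 (95% interval -0.58 to 0.31, adjusted p = 0.78). Cfb read 3.08, 3.23, 2.84, 2.26 and 2.62 in KO-control and 3.04, 3.49, 2.49, 2.78 and 2.45 in KO-injury, a difference of 0.04 (95% interval -0.43 to 0.52, adjusted p = 0.941). C2 read 1.54, 1.17, 1.29, 0.33 and 0.79 in KO-control and 2.00, 0.90, 0.85, 0.50 and 0.90 in KO-injury, a difference of 0.01 (adjusted p = 0.994). For C2 the highest injured KO trachea was replicate 1, a replicate in which C1qa, Cfp and C3ar1 lay below the KO control of their slide.

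Counted over genes, 8 of 8 were higher in KO-injury on slide 4, 7 on slide 2, 5 on slide 3, and 1 each on slides 1 and 5. Slides 1 and 5 were those scanned on a day of their own. Within that day the mean KO difference was -0.38 for C1qa, -0.26 for Cfp and -0.63 for C3ar1, and on the other day it was 1.03, 1.61 and 2.06. In wild-type mice the same days gave 1.99 and 1.64 for C1qa, 2.56 and 2.09 for Cfp, and 3.98 and 2.81 for C3ar1, so there the slides without a KO difference gave the larger values. Macrophage genes split the KO tracheas in the same way: Adgre1 differed by 2.32 and 2.35 on slides 2 and 4, by 0.74 on slide 3 and by 0.09 and -0.27 on slides 1 and 5. Cd68 differed by 3.44 and 2.59 on slides 2 and 4, by 1.56 on slide 3 and by -0.02 and -0.60 on slides 1 and 5. None of the 9 macrophage genes was called in KO-injury, where their summed level lay between 8.22 and 8.89. The part of the scan day and of the macrophage genes in the complement values was not tested.

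**Figure D2:**
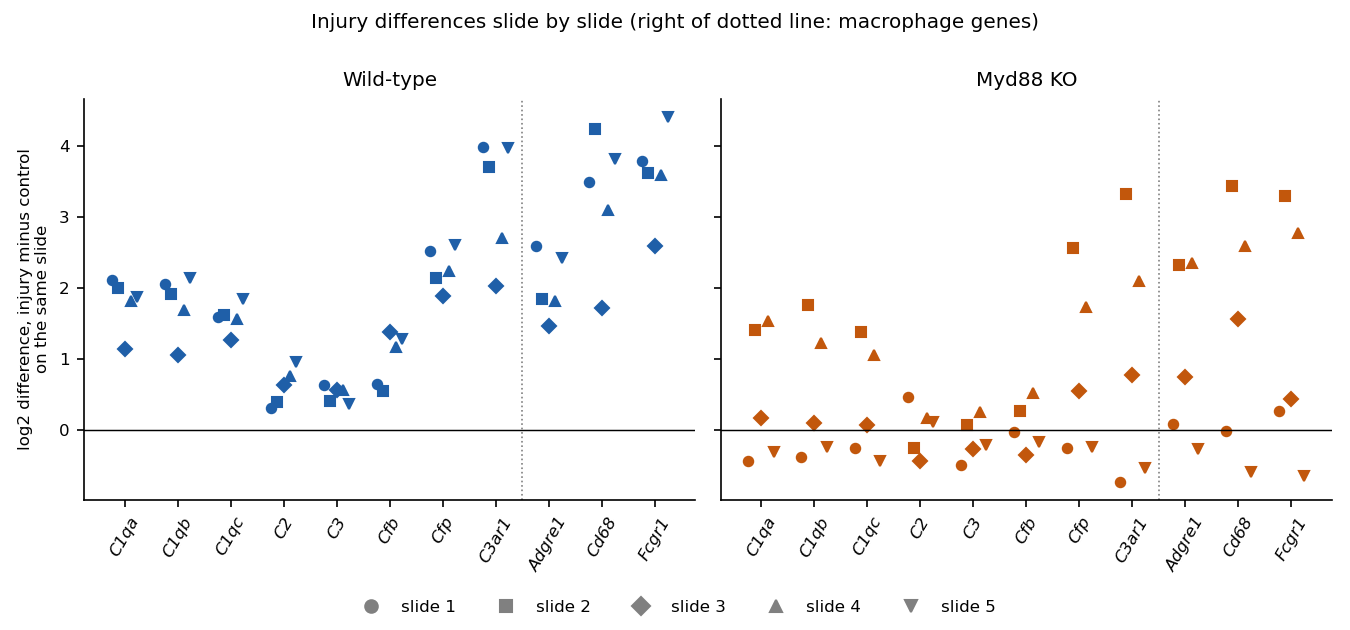
Difference between the injured and the control array of each slide (log2 scale, vertical axis) for the 8 tested complement genes and, right of the dotted line, 3 macrophage genes, in wild-type (left) and Myd88 KO (right); markers give the slide. In wild-type all points lie above 0, and in KO the points of slides 1 and 5 lie near or below 0 for C1qa, Cfp and C3ar1 while those of slides 2 and 4 reach 3.32.

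Between uninjured tracheas the genotypes differed little. None of the 8 genes was called, against 0.384% of all probes, and 1 had an unadjusted p under 0.05, against 5.59% of all probes. That gene was Cfb, lower in KO-control by 0.62 ± 0.23 (adjusted p = 0.548), with overlapping groups but lower on 5 of 5 slides. The other 7 differed by between -0.23 (C2) and 0.18 (C3ar1) in their brighter or only probe. The second C3ar1 probe gave 0.61 (95% interval -0.86 to 2.085), higher in KO-control on 5 of 5 slides. It was well above background on 0 WT-control and 2 KO-control arrays. The C1q chains were almost equal: C1qa averaged 1.30 ± 0.21 (SD, n = 5) in WT-control and 1.30 ± 0.34 in KO-control, with a 95% interval of the difference from -0.66 to 0.66.

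Between injured tracheas Cfb was called, lower in KO-injury than in WT-injury by 1.58 ± 0.23 on the log2 scale (2.99-fold, adjusted p = 0.000585). It was the only call among the 8 genes, and 0.38% of all probes were called here. The highest KO-injury value, 3.49, lay below the lowest WT-injury value, 4.11, and 1.24% of all probes had every KO array below every WT array. The difference ran from -0.62 on slide 2 to -2.37 on slide 5, and it was -1.36 on one scan day and -1.91 on the other. Cfb was the only one of the genes with a difference past 1 on both days. The call was lost when the fit held the 2 injured groups alone (adjusted p = 0.0135), where 38 of all 26063 probes were called. It was also lost with the one-way test of these groups (adjusted p = 0.0547), where 21 were called. The main fit called 99. Ordered by level, Cfb was highest in WT-injury (4.43 ± 0.27, SD), then WT-control (3.43 ± 0.36), KO-injury (2.85 ± 0.43) and KO-control (2.81 ± 0.38), and the last 2 did not differ beyond their spread.

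The other 7 genes were also lower in injured KO than in injured WT tracheas, by 0.78 (C3) to 2.11 (C3ar1), with unadjusted p between 0.00049 and 0.00275 and adjusted p between 0.0613 and 0.142, where 12.5% of all probes had an unadjusted p under 0.05. Their groups overlapped. For C3ar1 the difference was -0.62 within the scan day of slides 2, 3 and 4 and -4.34 within that of slides 1 and 5. For C1qa these values were -0.64 and -2.32, and for Cfp -0.88 and -2.73. C2 ran the other way, at -1.07 and -0.47. Cfp also passed the threshold once KO-injury replicate 2 was left out (-1.93, adjusted p = 0.00974).

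Leukocyte genes mostly lay lower in KO-injury in the same comparison, and none of them was called. All 9 macrophage and monocyte genes had a negative difference, with a median of -0.77, 4 with an unadjusted p under 0.05, and values down to -2.06 (Fcgr1, adjusted p = 0.121). Their summed level lay between 8.46 and 9.14 in WT-injury and between 8.22 and 8.89 in KO-injury. Of 6 tested neutrophil genes 5 were negative, each with an unadjusted p under 0.05, and the median was -3.07. Csf3r, the receptor for granulocyte colony-stimulating factor, had every KO-injury array below every WT-injury array (-3.22, adjusted p = 0.0879). The summed level of the 8 neutrophil genes on the array, to which Ltf added most, lay between 8.91 and 9.36 in WT-injury and between 8.54 and 9.44 in KO-injury. The 3 general leukocyte genes were negative with a median of -1.47, and their sum lay between 1.47 and 3.27 in WT-injury and between 0.34 and 2.45 in KO-injury. Between uninjured tracheas the macrophage median was 0.04 and the neutrophil median -1.79, with S100a9 lower in every KO-control array than in every WT-control array (-3.17, adjusted p = 0.492). The part of these genes in the complement differences between genotypes was not tested.

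Whether injury acted differently in the 2 genotypes was tested directly as the difference of the 2 responses. None of the 8 genes was called, nor was any other probe (0% of all probes). At an unadjusted p under 0.05 there were 7 of the 8 genes, and 10.4% of all probes. All 8 differences were negative, meaning a smaller response in KO, from -0.60 (C2) to -2.29 (C3ar1), with a median of -1.25 against -0.09 over all tested probes. The smallest adjusted p among the 8 was 0.391. The comparisons of injury with control and of the genotypes share arrays, so these values are not independent of those above.

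**Figure D3:**
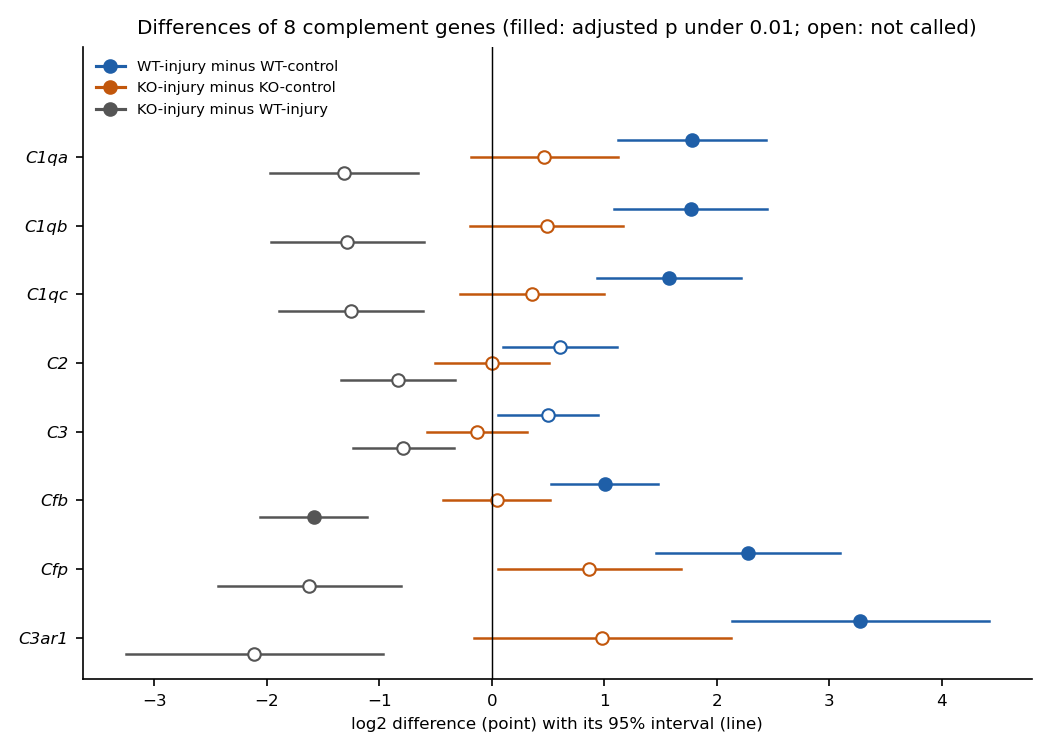
Log2 difference (point) and 95% interval (line, limma) of the 8 tested complement genes for injury in wild-type, injury in Myd88 KO and KO against WT after injury; filled points have an adjusted p under 0.01. The 6 filled wild-type points run from 1.00 (Cfb) to 3.28 (C3ar1), no KO point is filled, and Cfb at -1.58 is the filled point of the genotype comparison.

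The 9 genes were set beside a list of 45 other complement genes, of which 44 were on the array (C1rb was not found) and 29 were tested. In wild-type 4 rose (C4b, Clu, Itgax and Itgb2) and 1 fell (Cd55). Of all probes 3.24% were called higher there and 2.03% lower. The median difference of the 29 was 0.17, against 1.67 for the 8 genes above. Both lists were chosen with earlier results of these data known, so these medians are a description without a test. No other comparison called any of the 29 (limma). An unadjusted p under 0.05 was found for 9 in KO injury (19.5% of all probes), 3 between uninjured genotypes (5.59%), 8 between injured genotypes (12.5%) and 7 in the difference of responses (10.4%). With array weights 6 were called in KO injury, where that setting called 1901 of all 26063 probes. With the slide or the scan day as a block 1, C5ar2, was called between injured genotypes. These 2 settings called 112 and 136 of all 26063 probes there.

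Along the classical and lectin pathways 9 genes were tested and C4b alone rose, by 1.04 (adjusted p = 0.000492). C4b encodes the fourth component, cut beside C2, and its near-copy C4a failed the filter, so the signal of the C4b probe cannot be fully assigned between them. C4b ran from 1.78 to 2.26 in WT-control and from 2.89 to 3.63 in WT-injury, without overlap. C1s1, the protease that cuts it (0.28, adjusted p = 0.348), and C1ra, which activates C1s (0.49, adjusted p = 0.174), were not called, and neither was the lectin Fcna (1.07, adjusted p = 0.0551). Cfd, the protease that activates factor B and a product of fat cells, differed by -0.30 (adjusted p = 0.648). Of the terminal pathway Hc, the mouse gene for C5, was tested with C6 and C8g, and Hc differed by -1.02 (adjusted p = 0.0168, and 0.00358 with the slide as a block).

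Regulators did not move in one direction. Of 5 soluble ones Clu, which blocks the membrane attack complex, rose by 1.06 (adjusted p = 0.00147), while Cfi (0.08), Serping1 (0.26) and Vtn (0.01) were not called. Of 4 membrane regulators Cd55, which speeds the decay of the convertases, fell by 1.67 (adjusted p = 0.000293). Cd55 ran from 1.15 to 2.18 in WT-control and from -0.18 to 0.29 in WT-injury. In KO it differed by -0.91 (adjusted p = 0.0371), again with no overlap between the groups. Cr1l (-0.08) and Cd59a (-0.30) were not called in wild-type.

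Receptors of complement fragments other than the members were mostly higher in wild-type injury. All 7 tested had a positive difference and 2 rose: Itgb2, the common chain of the complement receptor integrins, by 2.66 (adjusted p = 0.00332) and Itgax, its partner in complement receptor 4, by 1.58 (adjusted p = 0.00617, and 0.0109, not called, with the slide as a block). Itgax also lost its call in 8 of the 20 fits that left out 1 array (adjusted p of 0.011 to 0.0209), and Itgb2 without WT-injury replicate 2 (0.0103). The dimmer Itgax probe read lower after injury, with group means of -3.54 and -4.25, so the probes of that gene disagree. Itgam, the partner in complement receptor 3, differed by 2.57 (adjusted p = 0.0131), and the macrophage receptor Vsig4 by 1.21 (adjusted p = 0.0128, and 0.00622 with the slide as a block). These receptors also mark myeloid cells. C5ar2, the second C5a receptor, lay lower in KO-injury than in WT-injury by 1.01 with no overlap (adjusted p = 0.155). It was called with the slide as a block (adjusted p = 0.00743) and with the scan day as a block (adjusted p = 0.00836).

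In uninjured tracheas 4 of the 29 genes, Cd59a, Cd59b, Itgax and Itgb2, had every KO array above every WT array, which held for 1.69% of all probes. Cd59a and Cd59b encode related inhibitors of the membrane attack complex, and their probes may share signal. Cd59a averaged 1.66 ± 0.45 (SD, n = 5) in WT-control and 2.40 ± 0.17 in KO-control, and its second probe gave -0.65 and -0.04. Neither the difference of Cd59a (0.74, adjusted p = 0.369) nor that of Cd59b (0.93, adjusted p = 0.556) was called.

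**Figure D4:**
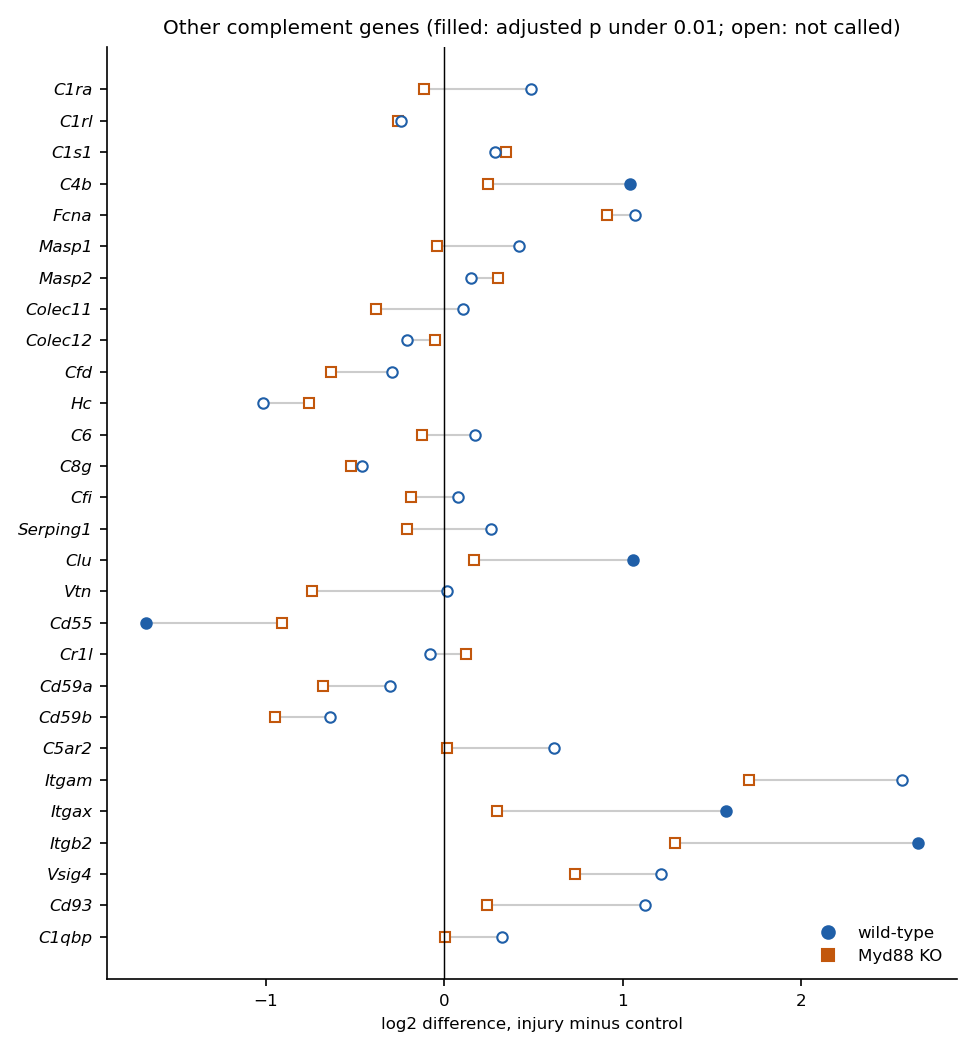
Log2 difference between injury and control of 28 of the other complement genes in wild-type (circles) and Myd88 KO (squares), joined by a grey line for each gene; filled symbols have an adjusted p under 0.01. The filled symbols are the wild-type values of C4b, Clu, Itgax, Itgb2 and Cd55, and Cd55 lies farthest to the left at -1.67.

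How the members varied from trachea to trachea was read after subtracting each group's mean, over the 20 arrays. C1qa and C1qb had r = 0.97, C1qa and Cfp 0.93, C1qb and C3ar1 0.94. C3 was less close to them, at 0.59 to 0.73 with the C1q chains, Cfp and C3ar1. C2 had r between -0.25 and 0.19 with the C1q chains, Cfp and C3ar1 and 0.53 with Cfb, its neighbour on chromosome 17. Genes of 1 array share its RNA and its scaling, and these values are descriptions without a test. For the C1q chains, Cfp and C3ar1 the KO-injury arrays spread widest. The split of those arrays by slide, described above, thus enters these values.

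The closest genes in this variation to the mean of the C1q chains were sought among 17526 other names, array names included. They were Fcgr1 (r = 0.98), a high-affinity receptor for immunoglobulin G, Adgre1 (0.98), the macrophage antigen F4/80, and Tnfaip8l2 (0.97). For Cfp they were Tnfaip8l2 (0.97), Adgre1 (0.96) and Susd3 (0.96), and for C3ar1 Fcer1g (0.97), the shared signalling chain of Fc receptors, Ppp1r18 (0.96) and Dab2 (0.96). C3 and Cfb were closest to other genes. For C3 these were Igf1 (0.85), Rab3il1 (0.85) and Stat2 (0.84). For Cfb they were H2-Q8 (0.82), Agpat4 (0.81) and H2-K1 (0.79), of which the H2 genes belong to the major histocompatibility class I genes, close copies whose probes may share signal. With the group means left in, r with Cfb was 0.44 for H2-Q8 and 0.12 for H2-K1.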

How the data were processed

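Whole trachea RNA of 20 mice was hybridised to 1-colour Agilent arrays. Per the file headers, Agilent Feature Extraction gave the deposited intensity of each spot, background-subtracted and detrended by the authors' scanner software, with no scaling between arrays. The deposited value table holds the same intensity (ratio to the scanner value 0.995 to 1.005). Control spots and 1960 outlier values were left out, spots of a probe were averaged as log2 of the deposited intensity, and each array's 75th percentile was subtracted. Probes well above background on 10 of 20 arrays were tested (26063 of 41174) with limma 3.58.1 in R 4.3.3, 1 fit over the 4 groups with 5 contrasts, Benjamini-Hochberg adjusted within each contrast at 0.01, the level of the methods. The brightest probe stands for a gene. Gene names came from RefSeq tables (GRCm38.p6), and 8455 probes without a match kept the array name. The genome build of the probe positions is not given in the sources used here, so none is printed. Array number limits the precision.

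Replicate numbers were those of the slides in the file headers. Arrays of 1 slide deviated together in every pair in the uninjured comparison (r from 0.25 to 0.48), and not in every pair in the others. Alternatives were the slide or scan day as a block, normexp, quantile or median scaling, other filters, array weights and the value table. The groups compared alone, a one-way parametric test of those groups, and leaving out each array were also tried. The text names all members, Myd88, called or central complement genes, marker genes and the 3 genes most alike in variation; 1 gene of the complement list is counted but not reported here. Members and lists were chosen with earlier results of these data known. The p-values measure the spread between these mice.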

Additional observations from a re-analysis of the deposited data

Results flagged for a closer look

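Within 36 groups of 5 tracheas (9 genes in 4 groups), 5 held a trachea set apart from the others by more than Dixon's 95% limit, and chance flags about 1 in 20 groups. KO-control replicate 1 was high for C1qa, at 1.90 against 1.22 for the next, and for C3, at 6.93 against 6.48. C2 was low in WT-control replicate 3, at 1.11 against 1.27, a small step within a tight group. C2 was high in KO-injury replicate 1, at 2.00 against 0.90 for the next, a trachea in which, as in KO-injury replicate 5, C1qa, Cfp and C3ar1 lay below the KO control of the same slide. C5ar1 was high in KO-control replicate 5, at -4.22 against -6.59, the one uninjured array on which its probe was well above background.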

How the results depend on the processing

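Over the 8 tested genes and 5 comparisons, 453 of 464 values under other processing and 771 of 800 values without 1 array kept their direction and their side of the threshold. With the replicate block (slide), 6 of the 8 genes were called in wild-type injury and Cfb between injured genotypes, 1 gene, as without it, and the block changed no call of these genes. Among the 29 other genes it added C5ar2 to the injured genotypes (1 gene called), as did the scan day block (1), and both added Hc and Vsig4 in wild-type injury, where the slide block lost Itgax (0.0109). Between injured genotypes 0 of the 8 genes were called with the groups compared alone and 0 with the one-way test, which took the adjusted p of Cfb to 0.0135 and 0.0547. Of all 26063 probes these settings called 38 and 21 there, against 99 in the main fit. The one-way test also lost C1qc (0.0115) and Cfb (0.0179) in wild-type injury, and keeping dim probes lost Cfb (0.0119). Of the other 29 genes, 8 were called in wild-type injury with median scaling and 8 with array weights, and 6 in KO injury with array weights. Of all 26063 probes these settings called 1409, 2598 and 1901. Directions near 0 reversed. In the uninjured comparison C1qa was -0.0271 with normexp, -0.0375 with quantile and -0.0727 with array weights, and C1qb was 0.0177 with median scaling. In KO injury C2 was -0.17 with array weights and C3 0.0134 with quantile scaling. Leaving out 1 array at a time gave 5 to 6 called genes in wild-type injury and 1 to 2 between injured genotypes (2 without KO-injury replicate 2). For the other 29 genes leaving out 1 array gave 4 to 7 in wild-type injury and 0 to 3 in KO injury. The 3 were Vtn, Cd55 and Itgam, without KO-injury replicate 5, where 1075 of all 26063 probes were called. Leaving out 1 array moved the uninjured difference between -0.149 and 0.0597 for C1qa, between -0.157 and 0.0673 for C1qb and between -0.237 and 0.0921 for C1qc. It moved the KO injury difference between -0.24 and 0.14 for C2 and between -0.12 and 0.15 for Cfb. The causes were not tested. The dim C5ar1 probe limits what can be said of that gene.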
